A study of Mus musculus with 2 samples.

Results

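The genes described here are WNT ligands, the receptors and co-receptors that bind them, and the secreted proteins that hold ligands off their receptors or strengthen the signal. They were taken by name from the gene table of the deposited matrices: all Wnt, Fzd, Dkk and Rspo genes with a numbered symbol, Sfrp1 to Sfrp5, and Wif1, Frzb, Lrp5, Lrp6, Axin2 and Notum. The rule found 47 of the 32589 genes in the table. The measurements are single-nucleus RNA-seq of mouse hearts, made to see which heart cells differ after a programmed cell death-1 (PD-1) inhibitor, an antibody class that blocks a brake on T cells and is used against tumours. Male C57BL/6 mice were 8 weeks old at the start. The Control group received PBS, and the PD-1 inhibitor group received an antibody against mouse PD-1 at 5 mg/kg by intraperitoneal injection, on days 1 and 14 of a 28-day cycle. Each group has 1 library, and how many hearts went into a library is not given in the sources used here.

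WNT proteins are lipid-modified signals that act over short distances. They bind Frizzled receptors together with the co-receptor Lrp5 or Lrp6, which stabilises β-catenin and turns on target genes such as Axin2, or they act through Frizzled and other receptors on cell shape and polarity without β-catenin. SFRP proteins and WIF1 bind ligands outside the cell, most DKK proteins act on the co-receptors, and R-spondins slow the removal of Frizzled receptors from the membrane. In the developing heart these signals take part in valve formation and in the growth of the epicardium, and in the injured adult heart they act on fibroblasts.

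The Control library held 10197 barcodes with 13177525 unique molecular identifiers (UMIs, each standing for 1 captured RNA molecule), and the PD-1 inhibitor library held 7967 barcodes with 10875248 UMIs. After filtering on mitochondrial share and removal of called doublets (5.85% and 3.87% of nuclei), 9522 and 7644 nuclei were kept, with medians of 1012 and 1055 UMIs per nucleus. The libraries shared 48 barcodes, of which 47 were kept in both. Clusters were named from marker lists that hold none of the 47 genes, so the names mean nuclei that are like these cell types and may differ from the study's own assignment. The named types were Fibroblasts (2474 Control and 1969 PD-1 inhibitor nuclei), ECs, or endothelial cells (2816 and 2511), CMs, or cardiomyocytes (1283 and 1092), MPs, or macrophage-like nuclei together with a dendritic cell-like cluster of 150 and 86 nuclei (1256 and 884 in all), Mural cells (587 and 415) and Mesothelial cells (481 and 462). Smaller types were T cells (236 and 192), B cells (174 and 80), Adipocytes (154 and 16) and Glial cells (30 and 10), and 31 and 13 cycling nuclei had no name.

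Levels are in CPM, the UMIs of a gene per 1000000 UMIs summed over the nuclei of a type in a library, and where a sentence gives a pair of values the Control library comes first and the PD-1 inhibitor library second. Intervals are exact 95% intervals and cover counting error only. With 1 library per group the spread between hearts of a group is unknown, no test was made between groups, and a difference between the libraries cannot be told apart from a difference between animals or preparations.

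Of the 47 genes, 44 had at least 1 UMI in the kept nuclei, with 10581 and 10915 UMIs (874 and 1061 CPM). At least 50 UMIs in both libraries together were found for 28 of the 47 (59.6%), against 44.1% of all genes. The 28 were 8 of 19 ligands (Wnt2, Wnt4, Wnt5a, Wnt5b, Wnt9a, Wnt9b, Wnt10b and Wnt11), 10 of 12 receptors and co-receptors (Fzd1 to Fzd8, Lrp5 and Lrp6), 4 of 5 SFRP genes (Sfrp1, Sfrp2, Sfrp4 and Frzb), 2 of 4 DKK genes (Dkk2 and Dkk3), 2 of 4 R-spondins (Rspo1 and Rspo3), Wif1 and Axin2. Fewer UMIs were counted for 16 genes, which carry no ratio here. They were Rspo2 with 43 UMIs, Sfrp5 with 35, Wnt16 with 34, Fzd10 with 26, Wnt2b with 25, Wnt6 with 25, Wnt7b with 24, Fzd9 with 18, Notum with 7, Wnt3a with 6, Wnt7a with 6, Dkk1 with 4, Wnt8b with 3, Wnt10a with 3, Wnt3 with 1 and Rspo4 with 1. Dkk4, Wnt1 and Wnt8a had 0 UMIs, which at this depth does not show that they were absent.

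The first comparison asked where in the heart each gene was found. A gene was said to lead in a type when its CPM there was at least 2 times that of each other type of at least 100 nuclei over both libraries, in each library alone. By this rule 12 of the 28 genes led in 1 type (42.9%), against 18.5% of the 14372 genes with at least 50 UMIs. In Fibroblasts these were 5 genes of secreted modulators (Frzb, Sfrp1, Sfrp2, Dkk3 and Wif1). In Mesothelial cells they were the ligands Wnt4, Wnt5a and Wnt9a and the R-spondin Rspo1. In ECs they were the ligand Wnt9b, the antagonist Dkk2 and the receptor Fzd6. None of the 28 led in CMs, MPs, Mural cells, T cells, B cells or Adipocytes. When a lead of at least 4 times was asked for, 5 genes led: Frzb, Wif1, Wnt9b, Rspo1 and Wnt5a. With every nucleus thinned to 500 UMIs, 7 of the 12 still led in the same type, and Dkk2, Dkk3, Sfrp2, Wif1 and Wnt4 did not. With the mean taken over nuclei 9 still led, and Dkk2, Sfrp2 and Wif1 did not. At no more than 5% mitochondrial UMIs and at the lower clustering resolution of 0.5, 4 of the 5 secreted modulators no longer led in Fibroblasts. Frzb, Dkk3 and Wif1 then led in a cluster named Glial cells, and Sfrp2 in no type.

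**Figure D1:**
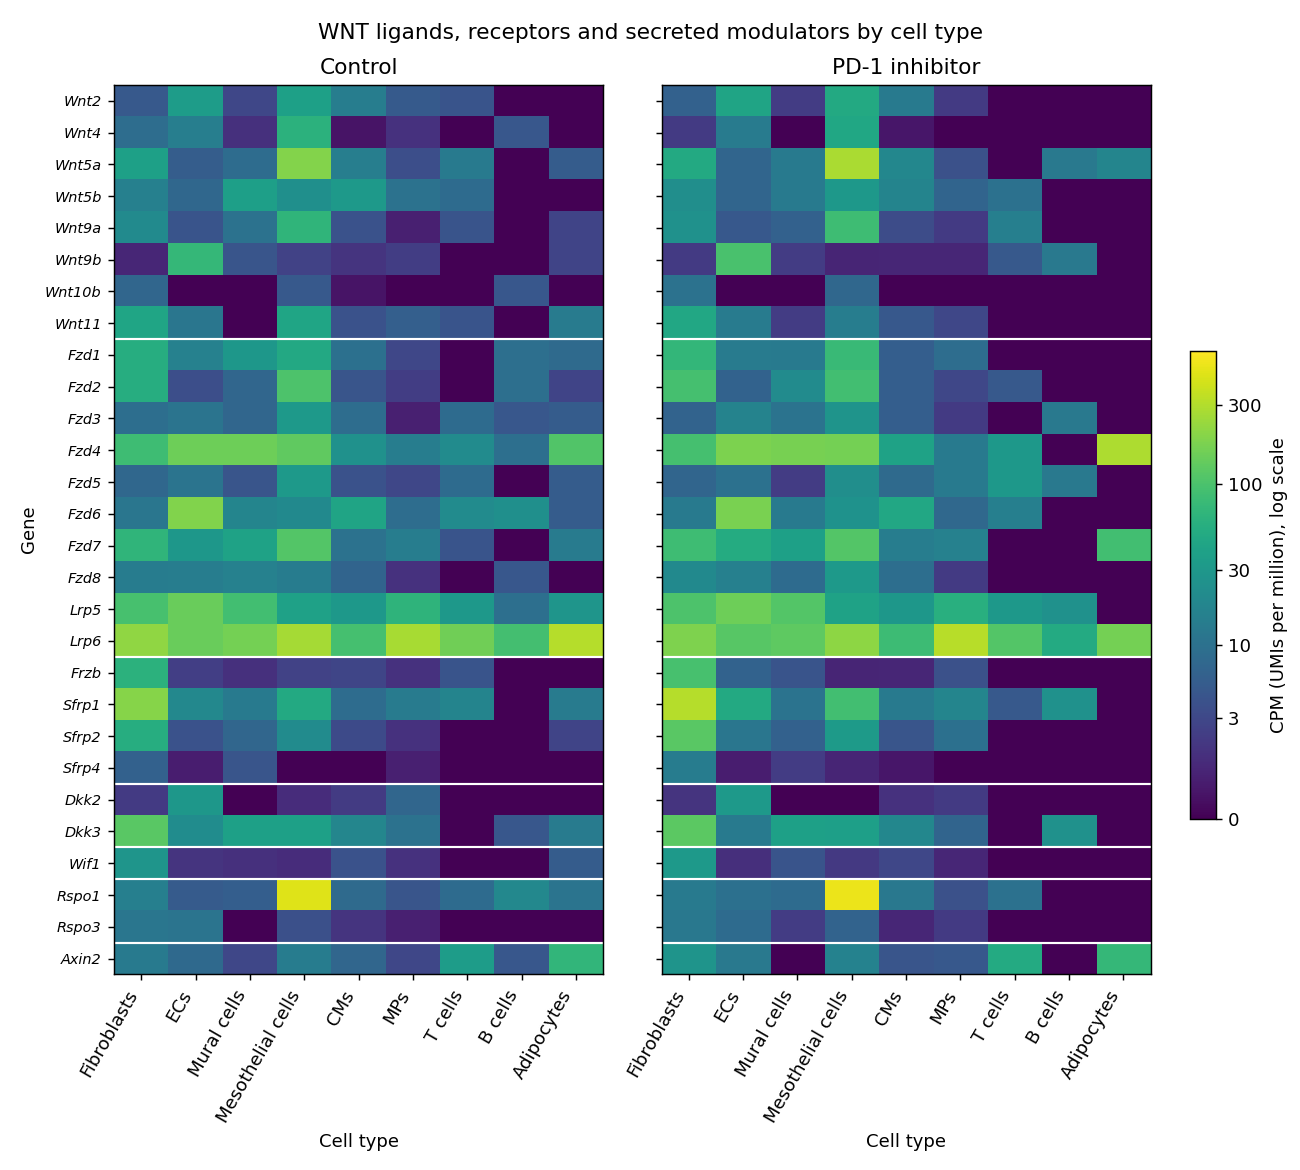
Level of the 28 genes with at least 50 UMIs in 9 cell types, in CPM on a log colour scale, with the Control library on the left and the PD-1 inhibitor library on the right; white lines separate ligands, receptors, SFRP genes, DKK genes, Wif1, R-spondins and Axin2. Rspo1 in Mesothelial cells stands at 460 and 525 CPM, while Lrp6 has UMIs in all 9 types.

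Among the ligands, Wnt5a, which signals mostly without β-catenin, was a gene of Mesothelial cells, the cells of the epicardial surface. Its level there was 192 CPM (163 to 225) and 279 CPM (247 to 313), and Fibroblasts came next with 38.2 and 49.5 CPM. A UMI of Wnt5a was found in 19.8% and 31.4% of Mesothelial nuclei and in 0.398% and 0.339% of MPs. Median depth differed, at 1293 and 1724 UMIs in Mesothelial cells and 902.5 and 966.5 in MPs, and with every nucleus thinned to 500 UMIs the Mesothelial shares were 9.36% and 10.8%. The thinned shares were thus closer together than the shares at full depth. Wnt9a, a ligand of the β-catenin branch, stood at 67.0 and 83.8 CPM in Mesothelial cells, 3.23 and 3.31 times its level in Fibroblasts. Wnt4 stood at 61.9 CPM (45.8 to 81.8) and 45.3 CPM (33.3 to 60.2) there, with ECs next at 14.7 and 13.8 CPM.

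Wnt9b (ENSMUSG00000018486, chr11:103727364-103749821, minus strand, GRCm38) is a ligand known from the endocardium during valve formation. It was found at 73.0 CPM (63.6 to 83.4) and 99.1 CPM (88.0 to 111) in ECs. ECs held 93.9% of its UMIs, and Fibroblasts had 1.00 and 2.01 CPM. Wnt2, a ligand of the β-catenin branch, led in no type: it stood at 37.9 and 49.1 CPM in Mesothelial cells and at 34.5 and 42.5 CPM in ECs, within each other's intervals in each library. Wnt11, a polarity ligand, stood at 43.5 and 47.1 CPM in Fibroblasts. In Mesothelial cells it had 34 and 15 UMIs (43.0 and 14.5 CPM), 1 short in all of the 50 set for a ratio here. Wnt5b, close to Wnt5a in sequence, was spread over Mural cells (36.7 and 12.8 CPM), CMs (31.3 and 17.2), Mesothelial cells (24.0 and 29.9) and Fibroblasts (15.7 and 22.9). Wnt10b had 22 and 26 UMIs in Fibroblasts (7.36 and 10.5 CPM) and 0 in ECs of either library, where 3 UMIs would have made 1.00 and 1.04 CPM.

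Of the 10 receptors and co-receptors, 1 led in a type. Fzd6, a Frizzled receptor known from the polarity branch, stood at 183 CPM (168 to 198) and 172 CPM (158 to 188) in ECs, with CMs next at 42.4 and 46.3 CPM. ECs held 74.1% of its UMIs. It had a UMI in 13.5% and 14.0% of EC nuclei (7.67% and 6.89% after thinning) against 0.876% and 0.905% of MPs, at similar median depths of 898 and 951 UMIs in ECs. Fzd4, the receptor for Norrin as well as for WNT ligands, was shared by vascular and epicardial types: ECs had 150 and 174 CPM, Mural cells 151 and 167, and Mesothelial cells 130 and 162. Adipocytes had 108 and 285 CPM of Fzd4, from 39 UMIs and 16 UMIs. Lrp5 was highest in ECs, at 145 and 151 CPM, while Lrp6 stood at 272 CPM (245 to 301) and 313 CPM (279 to 349) in MPs and at 310 and 161 CPM in Adipocytes, from 112 UMIs and 9 UMIs. Within MPs the macrophage cluster had 297 and 349 CPM of Lrp6 and the dendritic cell-like cluster 124 and 96.9. MPs thus carried the co-receptor Lrp6, while Fzd4, Fzd7 and Fzd1 had 19 and 13, 19 and 16, and 4 and 9 UMIs in them.

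Fzd7, Fzd2 and Fzd1 sat mainly on the stromal side. Fzd7 stood at 111 and 110 CPM in Mesothelial cells and at 66.6 and 84.1 CPM in Fibroblasts. Fzd2 followed with 102 and 87.7 CPM in Mesothelial cells and 54.2 and 92.2 CPM in Fibroblasts, against 3.68 and 6.56 CPM in ECs. Fzd1 stood at 48.0 and 79.0 CPM in Mesothelial cells and 54.2 and 70.0 CPM in Fibroblasts. These 3 receptors therefore shared Mesothelial cells and Fibroblasts as their highest large types. The other Frizzled receptors were less clearly placed. Fzd3 had 31.6 and 27.0 CPM in Mesothelial cells, with ECs next at 11.1 and 16.9. Fzd5 had 31.6 and 23.1 CPM there, but T cells of the PD-1 inhibitor library had 30.5 CPM of it, from 6 UMIs. Fzd8 had 13.9 and 30.8 CPM in Mesothelial cells, while in the Control library Mural cells at 16.2, ECs at 14.4 and Fibroblasts at 14.1 CPM had about as much.

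The SFRP genes encode soluble proteins with a Frizzled-like domain that bind WNT ligands, and among types of at least 100 nuclei all 4 with enough UMIs had their highest level in Fibroblasts, in each library. Frzb (ENSMUSG00000027004, chr2:80411970-80447625, minus strand) was the most concentrated, with 62.2 CPM (53.6 to 71.9) and 95.4 CPM (83.6 to 108) in Fibroblasts, 14.5 times the next type in both libraries, and 89.6% of its UMIs. Sfrp1 (ENSMUSG00000031548, chr8:23411502-23449632, plus strand) stood at 193 CPM (177 to 209) and 310 CPM (289 to 333) in Fibroblasts, with Mesothelial cells next at 49.3 and 88.7. The 30 and 10 Glial nuclei, left out of the order as too few, had 14 and 4 UMIs of it (433 and 281 CPM). A UMI of Sfrp1 was seen in 371 of 2474 and 441 of 1969 Fibroblasts (7.84% and 13.1% of them after thinning) and in 14 of 1256 and 15 of 884 MPs. Sfrp2 (ENSMUSG00000027996, chr3:83766321-83774316, plus strand) stood at 54.9 CPM (46.8 to 64.0) and 120 CPM (107 to 135) in Fibroblasts, 2.56 and 3.67 times Mesothelial cells. Sfrp4 was sparse, with 19 and 35 UMIs in Fibroblasts (6.36 and 14.1 CPM), and did not lead because Mural cells had 3 UMIs and 1 UMI.

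Among the DKK genes and Wif1, Dkk3 and Wif1 led in Fibroblasts and Dkk2 in ECs. Dkk3, a divergent member of the DKK family, stood at 121 and 122 CPM in Fibroblasts, with Mural cells next at 38.2 and 38.5. Wif1, which binds WNT ligands directly, had 84 and 77 UMIs in Fibroblasts (28.1 and 31.0 CPM) and at most 10 in any other of the 6 large types. Dkk2, which binds Lrp5 and Lrp6, stood at 29.5 CPM (23.6 to 36.3) and 31.4 CPM (25.3 to 38.6) in ECs, with MPs next at 7.49 and 1.98 CPM (10 and 2 UMIs), and had 0 UMIs in Mural cells of both libraries, where 3 UMIs would have made 4.41 and 6.42 CPM.

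Rspo1 (ENSMUSG00000028871, chr4:124986430-125009099, plus strand), an R-spondin, was a gene of Mesothelial cells. Its level was 460 CPM (414 to 510) and 525 CPM (482 to 571), 23.9 and 40.8 times the next type, and 82.2% of its UMIs were there. A UMI was found in 39.1% and 49.4% of Mesothelial nuclei, or 18.1% and 20.3% after thinning, against 0.478% and 0.452% of MPs. Rspo3, the other R-spondin with enough UMIs, was sparse in Fibroblasts (11.7 and 12.1 CPM) and ECs (11.1 and 8.64 CPM). Axin2, a target gene that feeds back on β-catenin and serves as its readout, had its highest level in Adipocytes, at 69.2 CPM (25 UMIs) and 71.4 CPM (4 UMIs). T cells followed at 34.4 CPM (8 UMIs) and 50.9 CPM (10 UMIs), and Fibroblasts had 13.1 and 27.4 CPM.

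Several of these levels came from small clusters within a type. A gene was named for a cluster when its level there was at least 4 times that in all other nuclei of the type, with at least 30 UMIs in the cluster. A sparse gene reaches 30 UMIs in a small cluster only by being high there. The counts by cluster therefore describe, and the shares of all genes beside them do not measure enrichment. The EC cluster with 6 of 7 valve EC markers, of 73 and 63 nuclei, held 4 of the 6 genes with enough UMIs by this rule (4.44% of all genes there). Wnt9b stood at 1484 CPM (1275 to 1717) and 1612 CPM (1406 to 1839), 83.1 times the other ECs, and this cluster held 79.2% of the EC UMIs of Wnt9b. Its UMIs were seen in 60.3% and 57.1% of these nuclei (45.2% and 34.9% after thinning), against 0.121% and 0.254% of Fibroblasts, at a median depth of 1742.5 UMIs in the cluster and 1044 and 1088 in Fibroblasts. Dkk2 stood at 429 and 418 CPM, 34.0 times the other ECs. Wnt4 stood at 239 and 227 CPM, 54.5 times the other ECs. A set of ligands and a co-receptor antagonist was thus high in the summed UMIs of this valve EC-like cluster. How many single nuclei held both is not given here. Wnt2 stood at 115 and 176 CPM, 4.41 times the other ECs, from 14 and 24 UMIs, a log2 ratio of 0.59 (-0.40 to 1.67), while those of Wnt9b, Dkk2 and Wnt4 were 0.12, -0.04 and -0.08. Wnt9b and Dkk2 were also among the 10 leading genes of this cluster, although the 47 genes were kept out of the clustering.

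The fibroblast cluster led by Chad, a cartilage matrix gene, held 118 and 91 nuclei and was like valve interstitial cells, with 7 of 8 of their markers but 4 of 13 fibroblast markers. In it 4 of 8 genes were named (4.98% of all genes there). Wif1 stood at 487 CPM (388 to 604) and 375 CPM (292 to 474), 244 times the other Fibroblasts, and 94.4% of its Fibroblast UMIs were in this cluster. Dkk3 stood at 1033 CPM (886 to 1197) and 734 CPM (615 to 868), with a log2 ratio of -0.49 (-0.83 to -0.16). Rspo3 stood at 106 and 130 CPM, 26.4 times the other Fibroblasts. Axin2 stood at 82.2 and 97.8 CPM, from 14 and 18 UMIs. The antagonist Wif1, the R-spondin Rspo3 and the target Axin2 were thus all higher in these nuclei than in other Fibroblasts. Without this cluster Dkk3 and Wif1 no longer led in Fibroblasts, and 10 of the 12 genes still led, a comparison added after the data were seen.

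**Figure D2:**
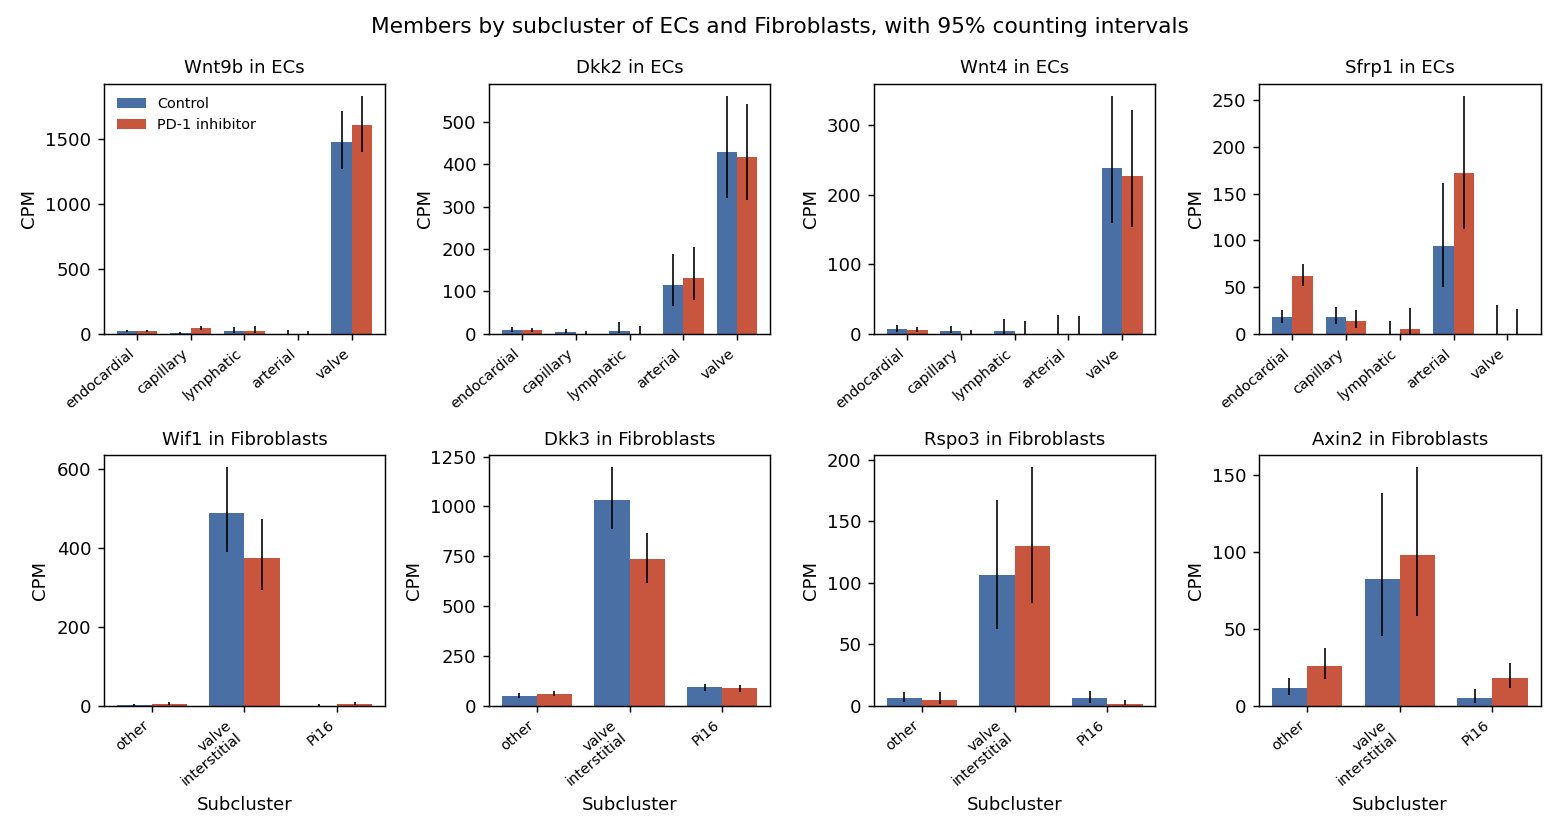
CPM of 4 genes in the clusters of ECs (top) and of 4 genes in the clusters of Fibroblasts (bottom), with bars for each library and lines for exact 95% Poisson intervals; the cluster called other holds Fibroblasts with no subtype name. Wnt9b reaches 1484 and 1612 CPM in the valve cluster, and Sfrp1 in endocardial ECs stands at 17.8 CPM (Control) and 61.8 CPM (PD-1 inhibitor).

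Arterial ECs (109 and 96 nuclei) had 2 of 6 genes named, against 3.00% of all genes: Dkk2 at 116 and 131 CPM and Sfrp1 at 94.1 and 172 CPM. Endocardial ECs had 1 of 17, against 2.16%: Sfrp2, with 10 and 30 UMIs (6.60 and 17.2 CPM) in 7 and 8 nuclei. Among CMs, the atrial cluster (41 and 43 nuclei) had 1 gene with enough UMIs, Dkk3, and it was named (5.59% of all genes there). Dkk3 stood at 483 CPM (323 to 693) and 404 CPM (278 to 568), 94.4 times the other CMs, with a UMI in 36.6% and 41.9% of nuclei (14.6% and 23.3% after thinning) against 0.717% and 0.792% of MPs. In 1 of the ventricular clusters Wnt5b was named, 1 of 8 genes against 7.26%, at 42.1 and 26.7 CPM. Dkk3 therefore had separate high points in atrial CMs and in the Chad-led cluster.

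The second comparison set the PD-1 inhibitor library against the Control library within each type. Ratios were formed for genes with at least 50 UMIs in the type, and those at least 1.5-fold apart in either direction were counted beside the same count over all genes.

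In Fibroblasts the secreted antagonists Sfrp1, Sfrp2 and Frzb, the receptor Fzd2 and the target Axin2 were higher in the PD-1 inhibitor library. Of 21 genes with enough UMIs, 6 were at least 1.5-fold apart, all of them higher, against 9.60% of the 10581 genes measured there. The median log2 ratio of the 21 was 0.34, against 0.00 for all genes, and 19 of 21 were above 0. With nuclei thinned to 500 UMIs the median was 0.21, and Dkk3, Rspo3, Wif1, Fzd6 and Lrp5 turned below 0. The sparse Sfrp4 was also among the 6, just over the 50 UMIs needed, and with at least 100 UMIs it was 5 of 16. The count was 7 higher and 1 lower with at least 500 genes per nucleus, and 4 higher and 1 lower with nuclei thinned to 500 UMIs. Sfrp2, at 54.9 and 120 CPM, had a log2 ratio of 1.13 (0.85 to 1.42). Sfrp1, at 193 and 310 CPM, had a log2 ratio of 0.69 (0.53 to 0.85). Frzb, at 62.2 and 95.4 CPM, had a log2 ratio of 0.62 (0.33 to 0.90), and Sfrp4, with 19 and 35 UMIs, a log2 ratio of 1.13 (0.30 to 2.04). The counting intervals of these 4 genes lay above 0. Under 15 other settings Sfrp1 and Sfrp2 were past 1.5-fold in all, Sfrp4 in 13 and Frzb in 11. Sfrp2 UMIs were seen in 4.28% and 8.08% of Fibroblasts (2.10% and 4.22% after thinning), and 4 and 19 nuclei had 4 or more of them.

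Fzd2 (ENSMUSG00000050288, chr11:102604396-102608058, plus strand), a Frizzled receptor, stood at 54.2 and 92.2 CPM in Fibroblasts, a log2 ratio of 0.76 (0.47 to 1.07). Axin2 (ENSMUSG00000000142, chr11:108920349-108950783, plus strand) had 39 UMIs in 30 nuclei and 68 UMIs in 48 nuclei, 13.1 and 27.4 CPM, a log2 ratio of 1.06 (0.48 to 1.68). The ligands Wnt5b at 0.54, Wnt5a at 0.38, Wnt9a at 0.29 and Wnt11 at 0.12 were above 0 and under 1.5-fold over all Fibroblasts. Wnt5b was just past it, at 0.59 to 0.65, under 4 other settings and stood at 0.05 when thinned, and Wnt5a was past it when thinned, at 0.65. Lrp6, at 218 and 179 CPM, was on the lower side after the antibody, at a log2 ratio of -0.29 (-0.46 to -0.11). The remaining 8 genes, Fzd1, Fzd4, Fzd6, Fzd7, Fzd8, Lrp5, Dkk3 and Wif1, lay between 0.01 and 0.52, and the R-spondins Rspo1 and Rspo3 stood at -0.22 and 0.05. Fzd8, the highest of the 8 at 0.52, was past 1.5-fold under 7 other settings, at 0.60 to 0.74, and stood at 0.24 with the mean over nuclei. Rspo3 turned to -0.62 with nuclei thinned to 500 UMIs and to -1.14 at no more than 5% mitochondrial UMIs. It stood at -1.13 at resolution 0.5 and at -1.14 without the Chad-led cluster. With at least 500 genes per nucleus Rspo1 was past 1.5-fold on the lower side.

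Within Fibroblasts the ratios were also taken by cluster. In the cluster with Pi16 and Cd248 (952 and 916 nuclei) Fzd2 stood at 55.6 and 125 CPM, a log2 ratio of 1.17 (0.75 to 1.61), whereas in the cluster led by Rgs17 (1404 and 962 nuclei) it stood at 54.6 and 57.9 CPM, a log2 ratio of 0.09 (-0.40 to 0.57). Sfrp1 had log2 ratios of 0.73 (0.52 to 0.94) and 0.51 (0.26 to 0.76) in the same clusters, the latter under 1.5-fold. Sfrp2 had log2 ratios of 1.56 (1.09 to 2.06) and 0.94 (0.55 to 1.33). Frzb had log2 ratios of 0.66 and 0.72. Wnt5b differed between them: it stood at 17.7 and 14.0 CPM in the Pi16 cluster, a log2 ratio of -0.33 (-1.35 to 0.66), and at 13.5 and 34.0 CPM in the Rgs17-led cluster, 1.32 (0.53 to 2.17). The differences of Fzd2 and Wnt5b between the clusters were not tested. In the Chad-led cluster Frzb was level, at 252 and 250 CPM.

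Some other values moved with these ratios. Fibroblast markers themselves were higher in Fibroblasts of the PD-1 inhibitor library: 12 of 13, with a summed level of 41087 and 50422 CPM, a log2 ratio of 0.30 (0.28 to 0.31), led by Gsn at 16797 and 20756 CPM, and none at 0. Mesothelial markers were higher too (6 of 10, summed 134 and 171 CPM, a log2 ratio of 0.36 (0.16 to 0.56), led by Upk3b, none at 0), as were Mural markers (6 of 11, 416 and 464 CPM, 0.16 (0.04 to 0.27), led by Pdgfrb, none at 0). Adipocyte markers were lower (1 of 9 higher, 61.6 and 20.9 CPM, -1.55 (-2.03 to -1.11), led by Pparg, with Lep at 0), and so were B cell markers (3 of 10 higher, 1158 and 993 CPM, -0.22 (-0.30 to -0.15), led by Ebf1, none at 0). Genes with a short span on the genome also tended upward: the median log2 ratio was 0.20 in the quintile of shortest genes and -0.17 in the quintile of longest genes. Fzd2 and Sfrp2 are in the shortest quintile and Lrp6 in the longest, while Sfrp1, Frzb and Axin2 are in the middle quintile, whose median was 0.02. The part of these in the ratios was not tested. Thinning every nucleus to 500 UMIs left Sfrp2 at 1.12 and Sfrp1 at 0.77, and took Fzd2 to 0.47, Sfrp4 to 0.46, Axin2 to 0.43 and Frzb to 0.37, under 1.5-fold. Frzb was also under it with the mean over nuclei (0.50), with the same mix of clusters in both libraries (0.54) and from thinned shares of nuclei (0.47).

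**Figure D3:**
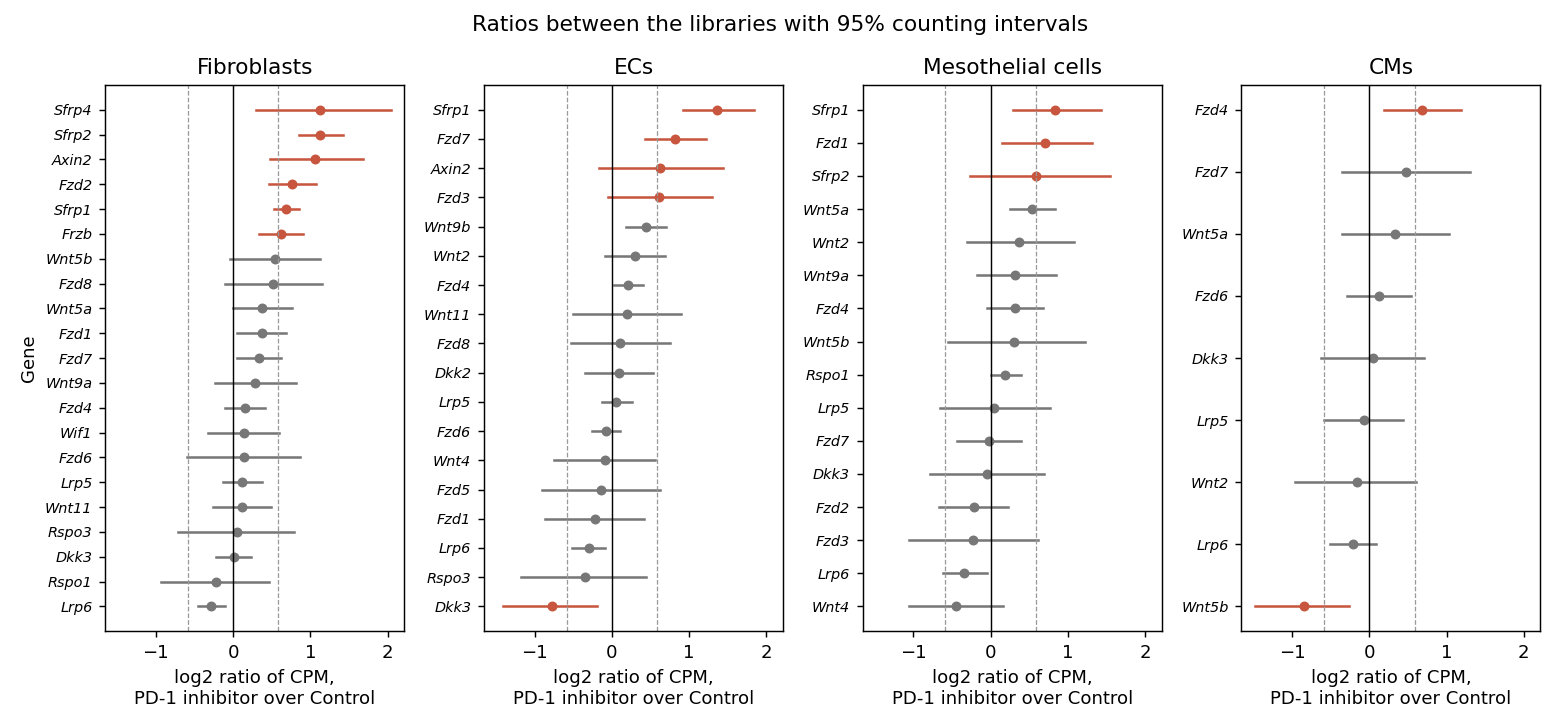
Log2 ratio of CPM, PD-1 inhibitor over Control, for each gene with at least 50 UMIs in Fibroblasts, ECs, Mesothelial cells and CMs; lines are exact 95% intervals for counting error, dashed lines mark 1.5-fold, and red marks genes at least 1.5-fold apart. In Fibroblasts 19 of 21 genes lie above 0 at full depth. Of these, Dkk3, Rspo3, Wif1, Fzd6 and Lrp5 turned below 0 with thinned UMIs, which are not drawn here.

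In ECs more UMIs per 1000000 of the antagonist Sfrp1 and the receptor Fzd7 were counted in the PD-1 inhibitor library, and fewer of Dkk3. Of 18 genes with enough UMIs, 5 were at least 1.5-fold apart, 4 of them higher, against 10.5% of the 10708 genes measured there. The median log2 ratio of the 18 was 0.10, against 0.00 for all genes. The direction of the count depends on the setting: it was 2 higher and 3 lower with nuclei thinned to 500 UMIs, and 3 higher and 3 lower with the mean over nuclei, with Wnt4 (-0.63 and -0.60) and Rspo3 (-0.68 and -0.62) then among the lower genes. Sfrp1 had 57 UMIs (19.1 CPM) and 143 UMIs (49.4 CPM), a log2 ratio of 1.36 (0.92 to 1.84). Fzd7 (ENSMUSG00000041075, chr1:59482424-59486955, plus strand), a Frizzled receptor, stood at 29.1 and 51.5 CPM, a log2 ratio of 0.82 (0.43 to 1.22). Dkk3 (ENSMUSG00000030772, chr7:112116017-112159057, minus strand) stood at 22.1 and 12.8 CPM, a log2 ratio of -0.78 (-1.41 to -0.19). For the other 2 genes the counting interval held 0: Axin2, with 24 and 36 UMIs, stood at 0.62 (-0.16 to 1.44), and Fzd3, with 33 and 49 UMIs, at 0.61 (-0.05 to 1.30). With the doublets kept, the log2 ratio of Dkk3 was -0.37 and that of Fzd3 0.52. The mix of EC clusters also differed: endocardial ECs had 1410 and 1501 nuclei and capillary ECs 987 and 692. Endocardial ECs held 78.4% of the EC UMIs of Fzd7, 82.9% of Fzd3, 67.5% of Sfrp1, 65.0% of Axin2 and 45.6% of Dkk3. With EC clusters weighted alike in both libraries, Axin2 stood at 0.43, Fzd3 at 0.43, Fzd7 at 0.63, Sfrp1 at 1.27 and Dkk3 at -0.88. The median of the 18 genes was then 0.00.

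Many of the EC UMIs of Sfrp1 in the PD-1 inhibitor library were in few nuclei. Endocardial ECs had 27 of 57 UMIs (17.8 CPM) and 108 of 143 UMIs (61.8 CPM), a log2 ratio of 1.77 (1.17 to 2.46), while capillary ECs had 17 and 9 UMIs and arterial ECs 13 and 25. In all ECs the number of nuclei with a UMI was 40 and 55, or 1.42% and 2.19% (0.675% and 1.23% after thinning). These shares were near those of MPs, at 1.11% and 1.70% (0.637% and 0.905% after thinning), and the level in MPs was 13.5 CPM (7.99 to 21.3) and 17.9 CPM (10.6 to 28.2). Counts this sparse do not show that ECs at large express Sfrp1. Dkk3 was as sparse, in 1.67% and 0.996% of ECs against 0.717% and 0.792% of MPs. Of the 143 UMIs after the antibody, 77 were in 8 nuclei with 4 or more each, and 23 in a single nucleus. Without the 5 nuclei richest in Sfrp1 in each library, a setting chosen once the data had been seen, the log2 ratio was 1.02 (0.47 to 1.61). Sfrp1 leads in Fibroblasts, and fibroblast markers were also higher in ECs of the PD-1 inhibitor library. All 13 had UMIs, 8 were higher, and their summed level was 3238 and 4260 CPM, a log2 ratio of 0.40 (0.36 to 0.43), led by Dcn at 1297 and 2129 CPM, with none at 0. Mesothelial markers were higher as well (9 of 10, summed 468 and 520 CPM, a log2 ratio of 0.15 (0.05 to 0.26), led by Gpm6a, none at 0). So were Glial markers (6 of 10, 188 and 212 CPM, 0.18 (0.01 to 0.35), led by Ncam1, with Foxd3 at 0). CM markers were slightly higher (7 of 12, 4403 and 4638 CPM, 0.07 (0.04 to 0.11), led by Myh6, none at 0). Lower were the markers of T cells (4 of 12 higher, 52.2 and 26.6 CPM, -0.97 (-1.39 to -0.57), led by Skap1, none at 0), Adipocytes (1 of 9 higher, 197 and 102 CPM, -0.94 (-1.15 to -0.74), led by Pparg, none at 0) and B cells (1 of 10 higher, 1127 and 973 CPM, -0.21 (-0.28 to -0.14), led by Ebf1, none at 0). The part of these lists in the ratios was not tested. Leaving out the 116 and 207 EC nuclei in which fibroblast markers made up at least 1% of UMIs, likewise chosen later, gave a log2 ratio of 1.27 for Sfrp1 and 0.84 for Fzd7.

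Fzd7 was spread over more nuclei, 71 and 109 (2.52% and 4.34%, against 1.27% and 1.70% of MPs), with at most 4 UMIs in any of them. It is in the quintile of shortest genes, whose median log2 ratio in ECs was 0.22. Within endocardial ECs it stood at 44.2 and 67.5 CPM, a log2 ratio of 0.61 (0.17 to 1.06). The EC-leading genes were closer together: Wnt9b had a log2 ratio of 0.44 (0.18 to 0.70), Dkk2 0.09 and Fzd6 -0.08. The ratio of Wnt9b depends on the setting. It was past 1.5-fold on the higher side at no more than 5% mitochondrial UMIs, and stood at -0.14 from thinned shares of nuclei. For Wnt9b the valve EC cluster was level, with a log2 ratio of 0.12 (-0.17 to 0.41). Capillary ECs had 4 UMIs of Wnt9b in 4 nuclei and 27 UMIs in 12 nuclei, a value singled out after it was seen. Lrp6 stood at 144 and 117 CPM in ECs, a log2 ratio of -0.30 (-0.51 to -0.09), in the quintile of longest genes with a median of -0.17. The other 8 genes with a ratio in ECs, Fzd1, Fzd4, Fzd5, Fzd8, Lrp5, Wnt2, Wnt4 and Wnt11, lay between -0.22 and 0.30, and Rspo3 stood at -0.35.

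In Mesothelial cells 3 of 16 genes were at least 1.5-fold apart, all higher in the PD-1 inhibitor library, against 11.9% of the 7282 genes measured there. That all 3 were higher depends on the 50 UMIs asked for. Wnt11, at 34 and 15 UMIs, was 1 short and had a log2 ratio of -1.55 (-2.55 to -0.66), a value singled out after it was seen, while Sfrp2 was 1 over. With at least 100 UMIs it was 2 of 9, Sfrp1 and Fzd1. The median log2 ratio of the 16 was 0.25, against 0.00 for all genes. Sfrp1, at 39 and 92 UMIs (49.3 and 88.7 CPM), had a log2 ratio of 0.84 (0.29 to 1.43). Fzd1 (ENSMUSG00000044674, chr5:4753839-4758035, minus strand), at 38 and 82 UMIs (48.0 and 79.0 CPM), stood at 0.71 (0.15 to 1.31). With every nucleus thinned to 500 UMIs the log2 ratio of Fzd1 was 0.37, and from thinned shares of nuclei that of Fzd1 was 0.18 and that of Sfrp1 0.54, under 1.5-fold. Sfrp2 had 17 and 34 UMIs in 10 and 18 nuclei, a log2 ratio of 0.59 (-0.27 to 1.54), and turned to -0.86 when every nucleus was thinned to 500 UMIs. The genes that lead in this type were under 1.5-fold in CPM over all nuclei: Wnt5a stood at 0.53 (0.25 to 0.83), Wnt9a at 0.32 (-0.18 to 0.85), Rspo1 at 0.19 (0.00 to 0.39) and Wnt4 at -0.45 (-1.06 to 0.16). Wnt4 turned to 0.98 with nuclei thinned to 500 UMIs and to 0.80 from thinned shares, and Wnt2, at 0.37 in CPM, to -0.86 and -0.68. Median depth in this type was 1293 and 1724 UMIs, and its part was not tested further. Wnt9a was just past 1.5-fold with the mean over nuclei (0.60), and Wnt5a without the 5 richest nuclei of each library (0.60). Lrp6 was lower here too, at 263 and 208 CPM, a log2 ratio of -0.34 (-0.62 to -0.05). The other 8, Fzd2, Fzd3, Fzd4, Fzd7, Lrp5, Dkk3, Wnt2 and Wnt5b, lay between -0.23 and 0.37. On the higher side, Fzd4 was past 1.5-fold from thinned shares and Wnt5b without the 5 richest nuclei of each library. Dkk3 was past it, at 0.81, without nuclei rich in fibroblast markers. Fzd2 turned to 0.41 with thinned UMIs and to 0.45 from thinned shares. Fibroblast markers were level in Mesothelial cells: all 13 had UMIs, 6 were higher after the antibody, and their summed level was 8042 and 7813 CPM, a log2 ratio of -0.04 (-0.09 to 0.01), led by Dcn at 3202 and 3034 CPM, with none at 0. Other lists were lower there: Mural markers (2 of 11 higher, 183 and 120 CPM, -0.60 (-0.96 to -0.25), led by Abcc9, with Cnn1 at 0), B cell markers (0 of 10 higher, 136 and 62.6 CPM, -1.12 (-1.59 to -0.67), led by Ebf1, with Cd79a and Fcmr at 0) and Adipocyte markers (0 of 9 higher, 51.8 and 11.6 CPM, -2.12 (-3.23 to -1.21), led by Pparg, with Lep at 0). Their part in the ratios was not tested. Without the nuclei in which fibroblast markers made up at least 1% of UMIs (26.0% and 25.8% of nuclei), the log2 ratio of Sfrp1 was 0.93.

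In CMs 2 of 9 genes were at least 1.5-fold apart, against 16.2% of the 9220 genes measured there. Fzd4 (ENSMUSG00000049791, chr7:89404355-89413134, plus strand) stood at 25.1 and 40.4 CPM, a log2 ratio of 0.68 (0.19 to 1.19), and Wnt5b (ENSMUSG00000030170, chr6:119432531-119544347, minus strand) at 31.3 and 17.2 CPM, a log2 ratio of -0.85 (-1.48 to -0.27). Fzd4 UMIs were in 51 and 50 nuclei, and 10 of the 82 UMIs of the PD-1 inhibitor library were in 1 nucleus. Without the 5 richest nuclei of each library its log2 ratio was 0.42 (-0.15 to 1.00), and with the mean taken over nuclei it was 0.30. The mix of CM clusters also differed. The ventricular cluster with a median of 0.505% mitochondrial UMIs had 735 and 525 nuclei and held 85.6% of the CM UMIs of Wnt5b, and the one with a median of 8.81% had 507 and 524 nuclei and held 61.5% of those of Fzd4. With the clusters weighted alike in both libraries Fzd4 stood at 0.49, under 1.5-fold, and Wnt5b at -0.64. Fzd4 belongs to the quintile of shortest genes and Wnt5b to the quintile of longest genes, whose medians in CMs were 0.26 and -0.27. EC markers were higher in CMs of the PD-1 inhibitor library, 14 of 14, with a summed level of 654 and 916 CPM, a log2 ratio of 0.49 (0.39 to 0.58), led by Eng at 86.9 and 133 CPM and none at 0. Of the Fibroblast markers 11 of 13 were higher there, and their summed level had a log2 ratio of 0.33 (0.28 to 0.39). For Mural markers it was 7 of 11 and 0.32 (0.22 to 0.42), led by Abcc9 at 363 and 365 CPM. For Mesothelial markers it was 7 of 10 and 0.62 (0.39 to 0.85), and for MP markers 9 of 14 and 0.16 (0.03 to 0.28). B cell markers were lower (3 of 10 higher, -0.32 (-0.57 to -0.07)). Fzd4 has higher levels in ECs, Mural cells, Fibroblasts and Mesothelial cells than in CMs. The part of these lists in its ratio was not tested. The other 7 genes in CMs, Fzd6, Fzd7, Lrp5, Lrp6, Dkk3, Wnt2 and Wnt5a, lay between -0.21 and 0.47. Wnt2 turned to 0.78 with thinned UMIs and to 0.62 from thinned shares, and Wnt5a to -0.83 from thinned shares. Dkk3 turned to -0.66 at no more than 5% mitochondrial UMIs. Fzd7 was past 1.5-fold on the higher side without the 5 richest nuclei of each library, and stood at -0.25 with the mean over nuclei. In MPs 0 of 2 genes were at least 1.5-fold apart, against 13.7% of all genes measured there: Lrp6 had a log2 ratio of 0.20 (-0.02 to 0.42) and Lrp5 -0.17 (-0.68 to 0.32). With nuclei thinned to 500 UMIs both turned sign, Lrp6 to -0.12 and Lrp5 to 0.42. In Mural cells 0 of 3 genes were at least 1.5-fold apart, against 16.8%: Lrp5 stood at 0.31, Fzd4 at 0.14 and Lrp6 at -0.33 (-0.81 to 0.13). Lrp6 was past 1.5-fold on the lower side there with the mean over nuclei, with thinned UMIs and from thinned shares.

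Another 89 genes of the pathway, from secretion to transcription, were counted in the same way, and 80 had at least 50 UMIs. By the rule for leading genes 14 of the 80 led in 1 type, about as often as the 18.5% of all genes. Gpc3, a cell-surface proteoglycan that binds WNT ligands, led in Mesothelial cells with 1061 and 1185 CPM, and Ctnnb1, which encodes β-catenin, in ECs with 344 and 391 CPM. Adgra2, a co-receptor for Wnt7 signals in vessels, Cthrc1 and Lypd6 also led in ECs. Sdc4 led in Mesothelial cells, Dact1 and Dact3 in Fibroblasts, and Mcam and Daam2 in Mural cells. The transcription factors Tcf7 and Lef1 and the feedback inhibitor Rnf43 led in T cells. Tnfrsf19 led in B cells, at 33.6 and 12.6 CPM, the latter from 1 UMI in 80 nuclei.

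Between the libraries a smaller share of these genes than of all genes was 1.5-fold apart outside CMs. Ratios of these pathway genes were taken at the main setting only, and not with thinned nuclei or under any other setting. In Fibroblasts it was 1 of 67 (1.49%, against 9.60% of all genes), Dvl2, a signal adaptor, with a log2 ratio of 0.72 (0.13 to 1.32), and the median of the 67 was -0.12. Of the 4 common target genes with enough UMIs in Fibroblasts, 1 was above 0 and 3 below, with a median of -0.02: Ccnd1 stood at 0.07 (-0.26 to 0.40), Apcdd1 at -0.04 (-0.44 to 0.36), Myc at -0.12 (-0.68 to 0.42) and Znrf3 at 0.00 (-0.37 to 0.36). Axin2 was thus higher in Fibroblasts of the PD-1 inhibitor library while these 4 other targets were within 1.5-fold. In Mesothelial cells all 3 targets with enough UMIs, Nkd1, Ccnd1 and Znrf3, were above 0, with a median of 0.91. Znrf3 stood at 0.18 (-0.40 to 0.78). Median depth in that type was 1293 and 1724 UMIs, and its part in these ratios was not tested. Elsewhere 3 of 5 were above 0 in ECs, 1 of 2 in CMs and 0 of 3 in MPs, with medians of 0.14, 0.37 and -0.22. In ECs it was 3 of 67 (4.48%, against 10.5%): Vangl2, a polarity gene, at 1.03 (0.26 to 1.87), Lrp4 at 0.64 (0.02 to 1.28) and Myc at -1.02 (-1.96 to -0.17). In Mesothelial cells 4 of 54 were 1.5-fold apart (7.41%, against 11.9%). Nkd1, a feedback inhibitor, with 14 and 42 UMIs, stood at 1.16 (0.29 to 2.18), and Ccnd1, a cyclin, with 48 and 119 UMIs, at 0.91 (0.42 to 1.43). Vangl1 stood at 0.64 (0.01 to 1.34) and Pygo2 at -0.62 (-1.49 to 0.23).

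CMs had 11 of 54 of these genes 1.5-fold apart (20.4%), 8 higher and 3 lower, beside 16.2% of all genes. The furthest were Gpc3 at 1.37 (0.63 to 2.18), Vangl1 at 1.24 (0.38 to 2.19), Pygo2 at 0.96 (0.16 to 1.80), and Amer1 and Tle1, both at 0.94 (0.13 to 1.81). Gpc3 stood at 9.06 and 23.6 CPM in CMs and leads in Mesothelial cells. Mesothelial markers had a log2 ratio of 0.62 (0.39 to 0.85) in CMs, and their part in the ratio of Gpc3 was not tested. In MPs 3 of 38 were 1.5-fold apart (7.89%, against 13.7% of all genes): Igfbp4 at 0.73 (0.44 to 1.03), Kremen1, a DKK receptor, at 0.73 (-0.03 to 1.52) and Dvl3 at 0.59 (-0.08 to 1.27). In Mural cells it was 3 of 42 (7.14%, against 16.8%): Gpc6, at 3297 and 2158 CPM, had a log2 ratio of -0.61 (-0.72 to -0.50), Bcl9 stood at 0.63 (-0.11 to 1.37) and Dvl3 at 0.62 (-0.06 to 1.30).

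Since some of these genes are themselves known targets of the pathway, their promoters were searched for the letters that TCF and LEF factors bind, CTTTGAA or CTTTGAT or CTTTGTA or CTTTGTT, on both strands. RefSeq windows of GRCm38.p6, from 250 bases before to 50 after a start that RefSeq gives for each gene, were present for 30 of the 47 genes. No entry was found for Dkk3, Dkk4, Fzd2, Fzd3, Fzd6, Fzd8, Lrp5, Lrp6, Notum, Rspo2, Rspo3, Sfrp1, Sfrp4, Wnt10a, Wnt5a, Wnt7b and Wnt8a. Of their 33 windows 5 held a match (15.2%), against 16.9% of all 32851 windows, so these letters were about as frequent as elsewhere. The genes were Dkk1, Fzd7, Wnt3, Wnt5b and Wnt11. The stretches of the 3 genes with at least 50 UMIs are shown because 2 of them, Fzd7 and Wnt5b, were 1.5-fold apart in ECs or CMs. Capitals mark the match, read on the strand of the gene, at chr1:59481997-59482043 (plus strand) for Fzd7, chr6:119449431-119449477 (minus strand) for Wnt5b and chr7:98835041-98835087 (plus strand) for Wnt11. In Fzd7 and Wnt11 the motif is on the other strand. The matches begin 130, 71 and 51 bases before the start used for each RefSeq window. For Fzd7 and Wnt5b that start is not the start of the gene span given above: it lies before the span of Fzd7 and inside the span of Wnt5b.
Fzd7: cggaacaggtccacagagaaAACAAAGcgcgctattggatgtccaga
Wnt5b: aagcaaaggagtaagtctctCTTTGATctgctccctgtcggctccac
Wnt11: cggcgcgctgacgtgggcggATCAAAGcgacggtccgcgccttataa
A match describes letters and not binding, and no factor was measured.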

How the data were processed

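The deposited values are UMI counts, whole numbers for each gene in each nucleus, from libraries for which the authors used a GEXSCOPE kit for single nuclei. The submitters' processing notes give the genome build GRCm38 (mm10). The aligner, the counter and the caller of nuclei are not given in the sources used here. No kept nucleus had under 500 UMIs. Of the 32589 gene IDs, 32522 are in GENCODE vM21, from which coordinates were taken.

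Barcodes needed 200 genes and a mitochondrial share of no more than 20%, which left out 83 and 15. Doublets were called per library with Scrublet in scanpy 1.11.5, with exact neighbours, and removed. Counts were scaled to 10000 per nucleus and logged. From 2000 variable genes without the 47 genes and the pathway list, 30 components and 15 neighbours were clustered by Leiden at resolution 1 (igraph 0.11.9, Python 3.11.15, numpy 2.4.6, scipy 1.17.1, pandas 2.3.3, matplotlib 3.10.9). Clusters were named by marker detection, meaning a UMI in 5% of nuclei or more and over 2 times the CPM of other nuclei, with 3 detected markers required. A cluster had no name when 50% or more of another type's markers were detected in it, or when 50% or more of its nuclei were cycling. Both of these limits were set after the clusters were seen.

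For ratios (PD-1 inhibitor to Control), 0.5 UMI was added to both sums. Intervals at 95% are exact Poisson for levels, Clopper-Pearson for shares, and binomial conditional on both counts for ratios. The code for ratios was tested on simulated data. Genes were named by rule: the 47 genes with at least 50 UMIs, with ratios where a type held at least 50, the pathway genes at least 1.5-fold apart in a type, at most the 5 furthest, and cluster genes at least 4 times the rest of the type with at least 30 UMIs. The 47 genes and the lists were chosen with earlier results of these data known. Alternatives covered doublets, filters, resolution, the denominator, depth, the mix of clusters, thresholds and single nuclei.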

Additional observations from a re-analysis of the deposited data

How the results depend on the processing

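Leaving out a library was not possible with 1 library per group, and no paired analysis was possible because each group has 1 library. Of 1035 values of log2 ratios under other settings, 995 stayed within the counting interval. Of the other 40, 2 were ratios at least 1.5-fold apart that turned sign. These 2 were Sfrp2 in Mesothelial cells, at -0.86 with nuclei thinned to 500 UMIs and -0.83 from thinned shares of nuclei. Among ratios under 1.5-fold 87 values turned sign, 64 of them within the counting interval, and 13 were then past 1.5-fold the other way. These were Wnt4 and Wnt2 in Mesothelial cells and Wnt2 in CMs under both thinned settings and Wnt5a in CMs under thinned shares. They were also Rspo3 in Fibroblasts with thinned UMIs (-0.62), at no more than 5% mitochondrial UMIs (-1.14), at resolution 0.5 (-1.13) and without the Chad-led cluster (-1.14), Dkk3 in CMs at no more than 5% mitochondrial UMIs (-0.66), and Dkk3 in Mesothelial cells without nuclei rich in fibroblast markers (0.81). Of 216 levels 184 stayed within the counting interval, and of 168 shares of nuclei 127, with all 24 thinned shares beyond it. The number of genes that led in 1 type went from 12 to 5 with a lead of at least 4 times, to 8 with nuclei thinned to 500 UMIs (without Dkk2, Dkk3, Sfrp2, Wif1 and Wnt4, and with Sfrp4) and to 10 with the mean over nuclei (without Dkk2, Sfrp2 and Wif1, and with Sfrp4). It rose to 13 with at least 500 genes per nucleus, with Sfrp4 in Fibroblasts. With at least 20 UMIs asked for it rose to 16, with Sfrp5 in CMs, Wnt16 in Mural cells, and Wnt2b and Wnt7b in Mesothelial cells. The number of genes at least 1.5-fold apart changed by over 1.5 times as follows. In ECs it went from 5 to 3 with doublets kept, 3 with the same mix of clusters, 3 with at least 100 UMIs and 1 at a threshold of 2-fold. In Fibroblasts it went from 6 to 3 at 2-fold. In CMs it went from 2 to 1 at no more than 5% mitochondrial UMIs, 1 with the same mix of clusters, 0 with the mean over nuclei and 0 at 2-fold. In MPs it went from 0 to 2 with doublets kept. In Mural cells it went from 0 to 1 with the mean over nuclei, 1 with thinned UMIs and 1 with thinned shares. In Mesothelial cells it went from 3 to 0 at 2-fold and to 5 without the 5 nuclei with the most UMIs. At 2-fold and at 100 UMIs fewer genes can be counted by construction, and otherwise the cause was not tested. Under 15 other settings Sfrp1 ranged from 0.64 to 0.77 in Fibroblasts and from 0.86 to 1.48 in ECs, Sfrp2 from 1.00 to 1.19 in Fibroblasts and Fzd7 from 0.63 to 0.99 in ECs, each past 1.5-fold in all 15. Fzd4 in CMs was past it in 9 of 15, Fzd3 in ECs in 10, Frzb in Fibroblasts in 11, Axin2 in ECs and Sfrp2 in Mesothelial cells in 12, and Fzd2 and Sfrp4 in Fibroblasts and Fzd1 in Mesothelial cells in 13. For Sfrp2 in Mesothelial cells, 2 of the 12 were on the lower side, under the thinned settings. The number of settings was 14 for Axin2 in Fibroblasts, Sfrp1 in Mesothelial cells, Dkk3 in ECs and Wnt5b in CMs, which stood at -0.49 with the mean over nuclei. At no more than 5% mitochondrial UMIs and at resolution 0.5, 198 and 206 of the 209 nuclei of the Chad-led cluster fell into a cluster named Glial cells, and Frzb, Dkk3, Wif1 and Rspo3 then led there, while Sfrp2 led in no type. Thinned shares, and the settings that leave out nuclei rich in a gene or in fibroblast markers or the Chad-led cluster, were chosen after seeing the data.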
